A study of Mus musculus with 6 samples.

Results

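The potassium channel genes were taken as all genes of the platform annotation whose symbol starts with Kcn. There were 84 of them among the 18193 genes measured, each read by the probe set with the highest mean intensity among those paired with 1 gene, and together they had 167 probe sets. The data came from 6 Affymetrix mouse arrays, 1 for each RNA sample. The 3 JG samples were juxtaglomerular cells, the renin-secreting cells of the afferent arteriole, sorted as YFP+ from the kidneys of adult C57BL6 mice of the genotype Ren1c YFP. The 3 MSC samples were renal mesenchymal stromal cells of the same strain and genotype, sorted with CD44 and then grown to confluence in serum-containing medium. The labels repeat that medium on the JG samples, so whether JG cells were cultured is not settled. They give no number of mice and do not say if replicates are different animals, and the p-values therefore measure the spread between these samples, which may be technical. Cell type and culture cannot be told apart in this design, and in bulk RNA fewer cells of a type and less RNA per cell cannot be told apart either.

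Potassium channels let potassium leave the cell and so set its resting potential. In vascular smooth muscle and JG cells the membrane potential governs calcium entry, and calcium in turn inhibits renin release. In tubular epithelium the same gene family recycles potassium across the apical and basolateral membranes, which keeps sodium transport running. Inward rectifiers (Kcnj) and 2-pore-domain channels (Kcnk) carry background currents, voltage-gated channels (Kcna to Kcnh, Kcnq and the silent subunits Kcns and Kcnv) open on depolarization, and Kcnm and Kcnn channels open when calcium rises. Kcne, Kcnab and Kcnip genes encode auxiliary subunits.

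The JG arrays were less alike than the MSC arrays, with pairwise correlations across genes of 0.797 to 0.882 in JG and 0.971 to 0.975 in MSC. JG sample 1 stood nearest to MSC (0.802 to 0.812). Markers of tubular epithelium were present in all JG samples. All 10 of 10 genes of the proximal tubule list were called higher, with summed intensities of 31111 to 39803 in JG and 363 to 664 in MSC. The thick ascending limb list was called higher for 6 of 6 (8577 to 11097 in JG, 48 to 51 in MSC), the distal convoluted and connecting tubule list for 5 of 5 measured (3298 to 13813 in JG, 39 to 54 in MSC) and the collecting duct list for 6 of 10 (4463 to 7014 in JG, 93 to 111 in MSC). Of the endothelial list 6 of 10 genes were called higher (1163 to 1472 in JG, 191 to 208 in MSC), and of the leukocyte list 5 of 10 (2096 to 4578 in JG, 116 to 589 in MSC). Of the renin cell list 4 of 8 measured genes were called higher (993 to 2255 in JG, 60 to 79 in MSC); Ren1 and Akr1b7 were not analysed here. Of the fibroblast list 4 of 10 genes were called higher (13888 to 39578 in JG, 19936 to 27413 in MSC), of the nerve and Schwann cell list 2 of 8 lower (379 to 816 in JG, 3428 to 3956 in MSC), and of the podocyte list 1 of 5 higher and 2 lower. Several of these counts changed when any 1 sample was omitted, and so did the calls over all genes. These were 2803 with all samples and 1235, 1170 and 1149 without MSC sample 1, 2 or 3. Without JG sample 1, 2 or 3 they were 5301, 2835 and 1931. With MSC sample 1, 2 or 3 omitted, 2, 1 and 1 endothelial, 2, 4 and 2 leukocyte, 2, 2 and 2 renin cell and 0, 0 and 0 podocyte genes were called higher, and 1 podocyte gene was called lower each time. With JG sample 3 omitted 3 endothelial and 0 podocyte genes were called higher, and with JG sample 2 omitted 3 leukocyte genes were called higher and 1 podocyte gene lower. The nerve and Schwann cell list had 1 gene called lower with JG sample 2 or 3 or MSC sample 1 or 2 omitted, and with JG sample 1 omitted 2 podocyte genes and 1 nerve and Schwann cell gene were called higher. The proximal tubule count stayed at 10 in each of these fits. With any 1 MSC sample omitted, 5 thick ascending limb, 4 distal convoluted and connecting tubule, 5 collecting duct and 3 fibroblast genes were called higher. The distal list also had 4 with JG sample 3 omitted, and the fibroblast list 3. The collecting duct list had 5 with JG sample 1 omitted and 7 with JG sample 2 omitted. Cd44, the sort antigen, was lower in JG (119 to 153 in JG, 881 to 1035 in MSC).

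Most potassium channel genes were dim, and 9 of the 84 were called. The difference JG minus MSC was fitted for all 18193 genes on log2 of the intensity plus 16, and a gene with a limma adjusted p under 0.05 is termed called. Higher in JG were 8 members (Kcnj16, Kcnj1, Kcnj15, Kcnj10, Kcnk1, Kcnk5, Kcnq1 and Kcne1), which is 9.52% of the family, against 7.7% of all genes. Lower in JG was 1 member, Kcnma1, or 1.19%, against 7.71% of all genes. The share called higher was thus close to that of all genes, and the share called lower was below it. Groups did not overlap for 22 members with JG above MSC (26.2%, against 20.2% of all genes) and for 3 with JG below MSC (3.57%, against 18.7%). Without JG sample 1 the calls became 14 higher and 3 lower, with 14.2% and 14.9% of all genes called in those directions.

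The fitted difference was above 0 for 65 of 84 members (77.4%, against 53.8% of all genes), with a median of 0.35 on the log2 scale, against a median of 0.07 over all genes. The size of the median depended on the setting. After quantile normalization it was above 0 for 57 members with a median of 0.21, against -0.01 over all genes, and with 1 added in place of 16 the median was 0.75, against 0.11 over all genes. A filter at the 25th percentile of intensity left 50 members, 40 of them above 0 with a median of 0.53, against -0.07 over the genes kept. With a filter at the median intensity 10 members were tested, 8 of them above 0 with a median of 1.53, against -0.32 over those genes. Both filters use the mean over all arrays, so a gene low in 1 group can pass through the other group alone. Kcnj16, Kcnj1, Kcnj15 and Kcnk1 passed the median filter through their JG values, and Kcnma1 through its MSC values. The medians after filtering are thus shaped by this selection and do not measure a shift among bright members. Over all genes the share above 0 was 47.6% after the 25th percentile filter and 40.5% after the median filter, against 53.8% without a filter. Dim genes thus lay above 0 more often than bright ones. The share over all genes is not matched to the members in intensity, and a matched share was not computed. Most members were dim: the mean intensity of 73 lay under the median over all genes of 84.1, and 15 members stayed below 16 on every array (17.9%, against 12.9% of all genes). No detection calls were at hand, so a low value is an intensity and not a statement of absence. Among the 75 members that were not called the differences ran from -0.63 to 1.71. Of these 75, 10 had an unadjusted limma p under 0.05, against 3001 of the 15390 uncalled among all genes.

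**Figure D1:**
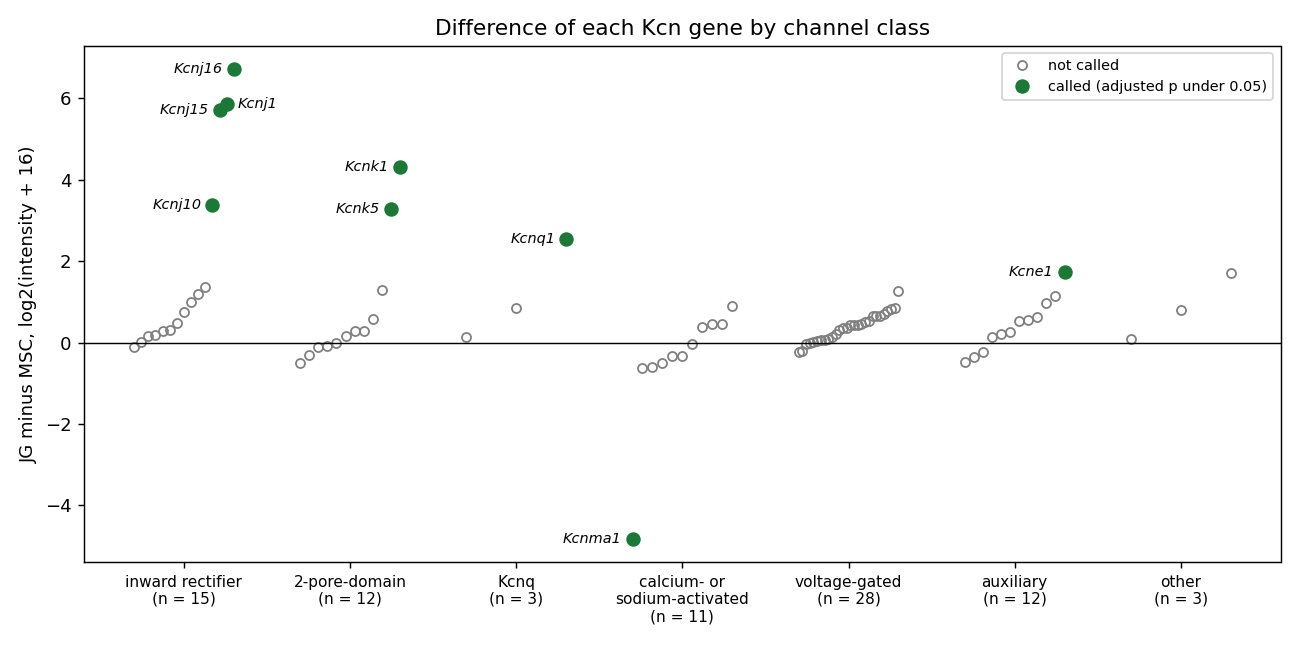
Each point is 1 of 84 Kcn genes, placed by channel class along the horizontal axis (number of genes in brackets) and by its difference JG minus MSC on the log2(intensity + 16) scale along the vertical axis; filled points are called by limma. The 8 filled points above 0 lie in 4 classes, with 4 of them among the inward rectifiers, and Kcnma1 at -4.82 is the 1 filled point below 0.

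Inward rectifiers held 4 of the 8 genes called higher in JG, out of 15 measured, where 7.7% of all genes were called higher. Kcnj16 encodes Kir5.1, a subunit that forms basolateral channels of the distal nephron together with Kcnj10 (Kir4.1) and channels of the proximal tubule with Kcnj15 (Kir4.2). Its intensity was 3209.5, 2044 and 2771 in JG samples 1 to 3, against 5.73, 22.0 and 3.36 in MSC samples 1 to 3. The groups were far apart, and the difference was 6.72 ± 0.35 (SE; adjusted p = 0.000138). Kcnj1 encodes ROMK, the apical potassium channel of the thick ascending limb and the collecting duct. It measured 1753, 796 and 1337 in JG and 1.02, 14.2 and 3.59 in MSC, a difference of 5.85 ± 0.38 (adjusted p = 0.000315). All JG values were again above all MSC values, and JG sample 2 was the lowest of the JG samples for both genes.

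Kcnj15 gave 1450.4, 2102 and 1933 in JG and 24.6, 16.5 and 15.1 in MSC (5.72 ± 0.26, adjusted p = 9.45e-05). Here JG sample 1 was the lowest of the JG samples. Kcnj10, which in the kidney sets the basolateral potential of the distal convoluted tubule, had 192, 177 and 191 in JG and 2.32, 3.59 and 4.02 in MSC (3.39 ± 0.21, adjusted p = 0.000236). Its JG values lay close together, with an SD of 8.68 about a mean of 186 (n = 3). Where the MSC values lie under 16, the log2 difference is set mainly by the JG values and the added 16 and understates the ratio. With 1 added in place of 16 the differences were 8.23 for Kcnj16, 7.89 for Kcnj1, 6.55 for Kcnj15 and 5.46 for Kcnj10.

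**Figure D2:**
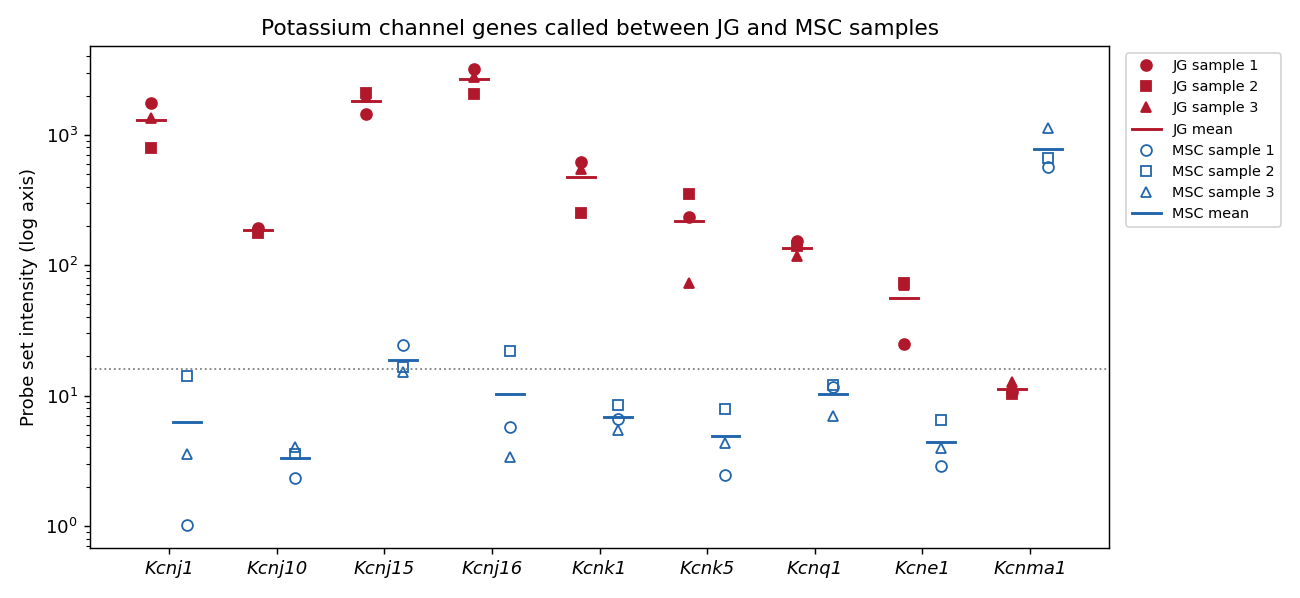
Points are probe set intensities on a log axis for the 9 called genes, with JG samples filled on the left and MSC samples open on the right of each gene; bars are group means (n = 3 each) and the dotted line marks 16, the added constant. For 8 genes all JG points lie above all MSC points, and for Kcnma1 the JG points between 10.3 and 12.6 lie below MSC points between 563 and 1125.

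The sequences before the annotated starts of the 3 genes with the largest positive differences and of Kcnma1 are shown because these genes moved furthest in either direction and their promoters differ in CpG content. Each is the 250 bases upstream of a RefSeq start on build GRCm38.p6, 5′ to 3′ on the gene's strand, with CpG dinucleotides in capitals. For Kcnj16, which has 4 starts in the table, the most upstream one is given.
Kcnj16, chr11:110967783-110968032, plus strand: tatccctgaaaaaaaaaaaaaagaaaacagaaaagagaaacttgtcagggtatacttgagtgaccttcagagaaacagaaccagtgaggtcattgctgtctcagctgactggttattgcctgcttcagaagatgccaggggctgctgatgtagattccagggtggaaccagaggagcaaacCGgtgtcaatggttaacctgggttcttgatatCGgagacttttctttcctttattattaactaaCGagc
Kcnj1, chr9:32393735-32393984, plus strand: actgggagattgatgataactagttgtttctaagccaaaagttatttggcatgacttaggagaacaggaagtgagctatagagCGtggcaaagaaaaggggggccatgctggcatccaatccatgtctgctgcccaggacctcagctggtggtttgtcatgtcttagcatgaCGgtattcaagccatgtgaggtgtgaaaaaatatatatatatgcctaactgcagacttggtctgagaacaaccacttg
Kcnj15, chr16:95257308-95257557, plus strand: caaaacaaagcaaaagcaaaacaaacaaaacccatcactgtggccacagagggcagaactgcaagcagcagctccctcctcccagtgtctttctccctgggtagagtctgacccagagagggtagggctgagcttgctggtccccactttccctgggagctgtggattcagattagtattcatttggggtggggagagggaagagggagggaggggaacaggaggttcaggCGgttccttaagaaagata
Kcnma1, chr14:24004206-24004455, minus strand: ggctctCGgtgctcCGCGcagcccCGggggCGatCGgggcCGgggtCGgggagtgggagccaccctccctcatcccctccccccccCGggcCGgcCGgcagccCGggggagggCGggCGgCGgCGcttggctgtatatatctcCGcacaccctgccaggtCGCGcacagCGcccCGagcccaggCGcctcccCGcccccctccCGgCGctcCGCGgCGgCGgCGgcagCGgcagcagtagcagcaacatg
The printed windows of Kcnj16, Kcnj1 and Kcnj15 hold 3, 2 and 1 CpG, and that of Kcnma1 holds 31. The other 3 Kcnj16 windows hold 7, 4 and 1. Over 32851 windows of the same length the median was 6, and 37.8% had 3 or fewer. Low CpG content was not shared by all genes called higher, since Kcnj10 had 17 and Kcnk5 had 19 while Kcnk1 had 0. Windows were found for 7 of the 9 called genes.

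These windows were also searched on both strands for TATAAA (the TATA box, in 12.4% of all windows), GTTAAT (a half-site of HNF1, a tubular transcription factor, 6.43%), AGGTCA (a nuclear receptor half-site, 14% of windows) and GGGCGG (the GC box, 32.7%). Overlapping matches were counted. The printed Kcnj16 window held GTTAAT once on the reverse strand and AGGTCA on both strands, and the printed windows of Kcnj1 and Kcnj15 held none of these motifs. GGGCGG was found in the windows of Kcnj10, Kcnk5 and Kcnma1. Of the other 3 Kcnj16 windows 1 held GGGCGG and 1 held TATAAA, the only TATAAA in the windows of called genes. A match describes letters in the window and not a site in use.

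Of the 11 inward rectifiers that were not called, Kcnj5 came nearest. It encodes Kir3.4, a subunit of channels gated by G proteins, and had 29.2, 72.9 and 30.2 in JG and 11.5, 9.15 and 6.88 in MSC (1.19 ± 0.33, adjusted p = 0.0602). Its groups did not overlap, and it was called with 1 added in place of 16, with array weights and without JG sample 1. Kcnj13 (Kir7.1), a channel of transporting epithelia, had 114, 181 and 93.4 in JG and 95.7, 20.0 and 24.9 in MSC (1.36 ± 0.50, adjusted p = 0.119). Only MSC sample 1 reached the JG range, and without it Kcnj13 was called (adjusted p = 0.0475). Kcnj12 (Kir2.2) overlapped between the groups, at 31.0 ± 4.52 in JG and 23.0 ± 9.43 in MSC (SD, n = 3 each). The differences of the 11 ran from -0.11 to 1.36.

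2-pore-domain channels, which carry potassium leak currents, gave 2 called genes of 12, both higher in JG, where 7.7% of all genes were called higher. Kcnk1 (TWIK-1) measured 619, 251 and 547 in JG and 6.57, 8.41 and 5.41 in MSC (4.33 ± 0.37, adjusted p = 0.000993). Kcnk5 (TASK-2), which opens in alkaline medium and serves bicarbonate reabsorption in the proximal tubule, measured 233, 351 and 72.7 in JG and 2.47, 7.91 and 4.36 in MSC (3.27 ± 0.53, adjusted p = 0.0109). The groups did not overlap for either gene. Kcnk5 varied more among the JG samples than Kcnk1, and it was no longer called when MSC sample 1 (adjusted p = 0.0553) or MSC sample 3 (adjusted p = 0.0550) was left out. Kcnk10 (TREK-2) was carried by 1 JG sample, with 329.7, 10.5 and 26.9 in JG and 83.9, 78.3 and 64.2 in MSC (-0.32 ± 0.93, adjusted p = 0.848). Without JG sample 1 it was called lower in JG at -1.44 (adjusted p = 0.0207). Kcnk7, an isoform that gives no current of its own in expression systems, was at 6.83 ± 3.13 in JG and 16.6 ± 6.72 in MSC (adjusted p = 0.249), and 4 of the 12 genes lay below 16 on every array.

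Kcnq1 and Kcne1 encode the pore and the auxiliary subunit of 1 channel complex, known from heart muscle and from the brush border of the proximal tubule, and both rose. Kcnq1 had 153, 139 and 117 in JG and 11.6, 12.1 and 7 in MSC (2.54 ± 0.23, adjusted p = 0.00117). Kcne1 had 24.9, 73.2 and 70.0 in JG and 2.86, 6.48 and 3.96 in MSC (1.74 ± 0.36, adjusted p = 0.0247). Neither gene overlapped between the groups. Kcne1 was the least stable of the called genes, and its adjusted p was 0.0983, 0.0871 and 0.101 when MSC sample 1, 2 or 3 was left out, 0.0718 when JG sample 3 was, 0.0568 with 64 added in place of 16 and 0.0524 with a replicate block. The other Kcnq genes, whose products carry the M-current of neurons, were not called. Kcnq3 had 1.07, 78.6 and 4.34 in JG and at most 2.36 in MSC (adjusted p = 0.419), so that JG sample 2 alone stood out, and Kcnq5 was at 13.2 ± 15.1 in JG and 8.63 ± 3.89 in MSC (adjusted p = 0.855).

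Within the JG group, Kcnj1, Kcnj10, Kcnj16 and Kcnk1 were each highest in sample 1, next in sample 3 and lowest in sample 2. The summed distal convoluted and connecting tubule markers had the same order (13813, 8402 and 3298 in JG samples 1, 3 and 2), and so had the thick ascending limb markers (11097, 9530 and 8577), the fibroblast markers (39578, 21320 and 13888) and Cd44 (153, 144 and 119), so that the order was not particular to tubular markers. On the probe sets that stand for them, Kcnj15 and Kcne1 ran the other way, with the highest value in JG sample 2 and the lowest in JG sample 1. Kcnk5 was highest in JG sample 2 and lowest in JG sample 3, and Kcnq1 was highest in JG sample 1 and lowest in JG sample 3. The summed collecting duct markers were highest in JG sample 3, and the proximal tubule sum was 39803, 37375 and 31111 in JG samples 3, 1 and 2. Some of these orders changed with the probe set. In JG samples 1 to 3 the second Kcnj15 probe set had 1125, 679 and 688, and the third had 84.4, 968 and 1145. The second Kcnk1 probe set had 133, 132 and 184, and the second Kcnk5 probe set had 66.9, 45.5 and 15.2. The second probe sets of Kcnj1 and Kcnj16 kept the order of the first. With 3 samples these orders are given as a description. The part of tubular RNA in the 8 calls was not tested.

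Calcium- and sodium-activated channels gave the 1 gene that fell, out of 11 measured, where 7.71% of all genes were called lower. Kcnma1 encodes the pore of the BK channel, which opens with calcium and depolarization and limits contraction in smooth muscle. It measured 10.6, 10.3 and 12.6 in JG and 563, 660.0 and 1125 in MSC (-4.82 ± 0.31, adjusted p = 0.000303). The groups were far apart and every JG value was below 16. Beside it, the smooth muscle and pericyte markers summed to 3245 to 4573 in JG and 15883 to 20836 in MSC, with 5 of 10 called lower and 2 higher in JG. With MSC sample 1 omitted 3 were called lower and 0 higher, with MSC sample 2 omitted 3 lower and 2 higher, and with MSC sample 3, JG sample 2 or JG sample 3 omitted 1 was called higher. Their part in the Kcnma1 difference was not tested.

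The beta subunits of the BK channel did not follow the pore gene past the threshold. Kcnmb1, the smooth muscle beta subunit, had 1.10, 1.33 and 35.6 in JG and 30.5, 30.5 and 4.32 in MSC (-0.51 ± 0.56, adjusted p = 0.574), and 1 sample in each group went against the other 2. Kcnmb4 was at 9.99 ± 5.60 in JG and 24.6 ± 10.6 in MSC (-0.63 ± 0.30, adjusted p = 0.204). Kcnn4, the intermediate-conductance channel of lymphocytes, red cells and proliferating fibroblasts, had 48.2, 188 and 171 in JG and 120, 16.6 and 70.8 in MSC. Its groups overlapped (0.89 ± 0.67, adjusted p = 0.411). The small-conductance channel gene Kcnn1 (22.4 ± 5.22 in JG, 12.0 ± 3.15 in MSC, adjusted p = 0.234) did not overlap, and the sodium-activated channel gene Kcnt1 (20.1 ± 10.9 and 9.41 ± 3.60, adjusted p = 0.355) did.

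None of the 28 voltage-gated pore and silent subunit genes was called by limma, where 7.7% of all genes were called higher and 7.71% lower. An unadjusted limma p under 0.05 was found for 4 of the 28, against 3001 of the 15390 uncalled among all genes. Their highest intensity was 153 on a JG array and 76.7 on an MSC array, and the mean of all 28 lay under the median over all genes. Kcna7 (Kv1.7) had 39.1, 153 and 66.2 in JG and 14.1, 26.0 and 26.7 in MSC (1.28 ± 0.45, adjusted p = 0.108). The groups did not overlap, and Kcna7 was called without JG sample 1 (adjusted p = 0.0299). Kcna5 (Kv1.5), a delayed rectifier of vascular smooth muscle, had 103, 79.1 and 81.0 in JG and 36.9, 76.7 and 62.2 in MSC (0.50 ± 0.29, adjusted p = 0.282). Kcnd1 (Kv4.1), an A-type channel, was at 84.1 ± 28.3 in JG and 41.6 ± 11.4 in MSC (adjusted p = 0.137), and Kcnh3, a brain-enriched member of the EAG group, at 47.2 ± 34.7 and 39.2 ± 24.4 (adjusted p = 0.870).

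Among the 12 auxiliary subunit genes Kcne1 was the 1 that was called, where 7.7% of all genes were called higher. Kcne4, which inhibits several voltage-gated channels, had 105, 37.9 and 23.7 in JG and 24.0, 53.6 and 13.0 in MSC (0.56 ± 0.52, adjusted p = 0.501). Kcnip4 (42.8 ± 16.5 in JG, 23.5 ± 2.93 in MSC, adjusted p = 0.235) and Kcnip1 (26.1 ± 4.26 and 34.3 ± 10.1, adjusted p = 0.558), which encode calcium-binding partners of Kv4 channels, were not called. The 3 remaining symbols are non-coding transcripts. Kcnq1ot1, an imprinted RNA transcribed antisense to Kcnq1, had 180.3, 887 and 496 in JG and 422, 34.2 and 103 in MSC (1.71 ± 0.90, adjusted p = 0.249), and which strand its probe sets read was not checked. Kcnmb4os1 was at 18.9 ± 6.58 in JG and 3.68 ± 1.12 in MSC (adjusted p = 0.0702), and Kcnmb4os2 stayed below 16 on all arrays.

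The textbook channels formed a single list for renal tubule and arteriole, of which 18 were measured and 9 called. The vascular genes described next were picked with the results known, and none of them was called. Kcnj8 (Kir6.1) and the sulfonylurea receptor gene Abcc9 encode the vascular ATP-sensitive channel, which is typical of mural cells. Kcnj8 had 56.2, 9.88 and 16.9 in JG and 4.53, 3.57 and 3.37 in MSC (0.99 ± 0.41, adjusted p = 0.153). Abcc9 had 32.6, 10.7 and 158 in JG and 4.55, 2.52 and 4.50 in MSC (1.62 ± 0.66, adjusted p = 0.153). For both genes all JG samples lay above all MSC samples, JG sample 2 was the lowest JG sample, and the spread among the JG samples was wide. Kcnj2 (Kir2.1), the strong inward rectifier of arterioles, had 65.2, 7.50 and 47.1 in JG and 12.4, 21.1 and 8.49 in MSC (0.74 ± 0.50, adjusted p = 0.352). JG sample 2 lay below all MSC samples, and without it Kcnj2 was called (adjusted p = 0.0391). Kcnj11 (Kir6.2) overlapped between the groups, with 6.13, 115 and 36.7 in JG and 31.0, 18.1 and 49.1 in MSC (adjusted p = 0.877). The leak channel genes Kcnk3 (TASK-1; 31.0 ± 2.86 in JG, 23.5 ± 8.69 in MSC, adjusted p = 0.502) and Kcnk2 (TREK-1; 8.29 ± 8.83 and 3.13 ± 0.99, adjusted p = 0.556) were not called either. A second Kcnk3 probe set was called higher in JG in a fit across all probe sets (1.215, limma adjusted p = 0.0461), while the third gave -0.08.

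**Figure D3:**
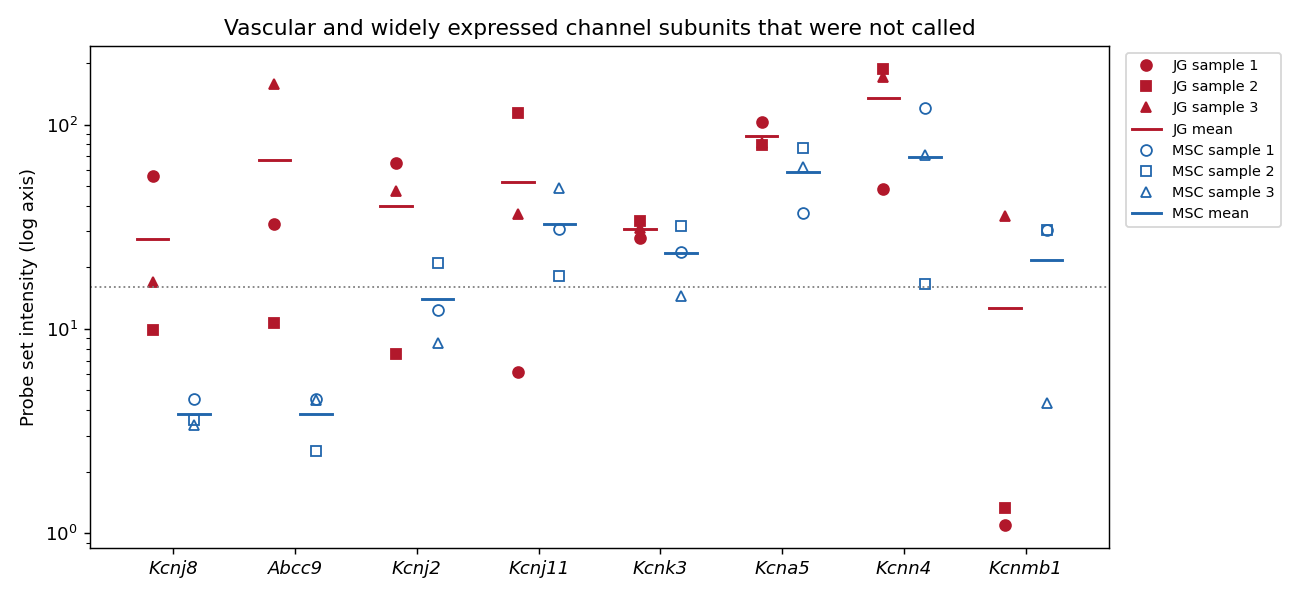
Points are probe set intensities on a log axis for 7 Kcn genes and Abcc9, none of them called, with JG samples filled on the left and MSC samples open on the right; bars are group means (n = 3 each) and the dotted line marks 16. JG and MSC points are interleaved for Kcnj2, Kcnj11, Kcnk3, Kcnn4 and Kcnmb1, while Kcnj8, Abcc9 and Kcna5 have all JG points above all MSC points.

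For called genes the probe sets gave the same direction, while of all 46 members with several probe sets 19 had differences of both signs. Of the 9 called genes 7 had more than 1 probe set, and for 6 of these a second one was called the same way in a fit across all 34945 probe sets that name 1 gene. In that fit 15 of the family's 167 probe sets were called higher in JG and 3 lower, against 5.4% and 7.47% of all probe sets. Kcnj15 had 3 probe sets called higher, at 5.72, 4.95 and 4.28. Kcnj16 differed more between probe sets: the second one had 3543, 1374 and 2519 in JG and 33.5, 96.3 and 58.1 in MSC and gave 4.97. The second Kcnk5 probe set was not called (1.08, adjusted p = 0.124). Both Kcne1 probe sets were called, but the second had its highest JG value in sample 1 (96.7, 47.3 and 30.3), where the first had its lowest. For Kcnma1 3 of 5 probe sets were called lower and the other 2 were not, at -1.49 and -0.41. Probe sets can read different transcript ends, and which isoforms they match was not analysed here.

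**Figure D4:**
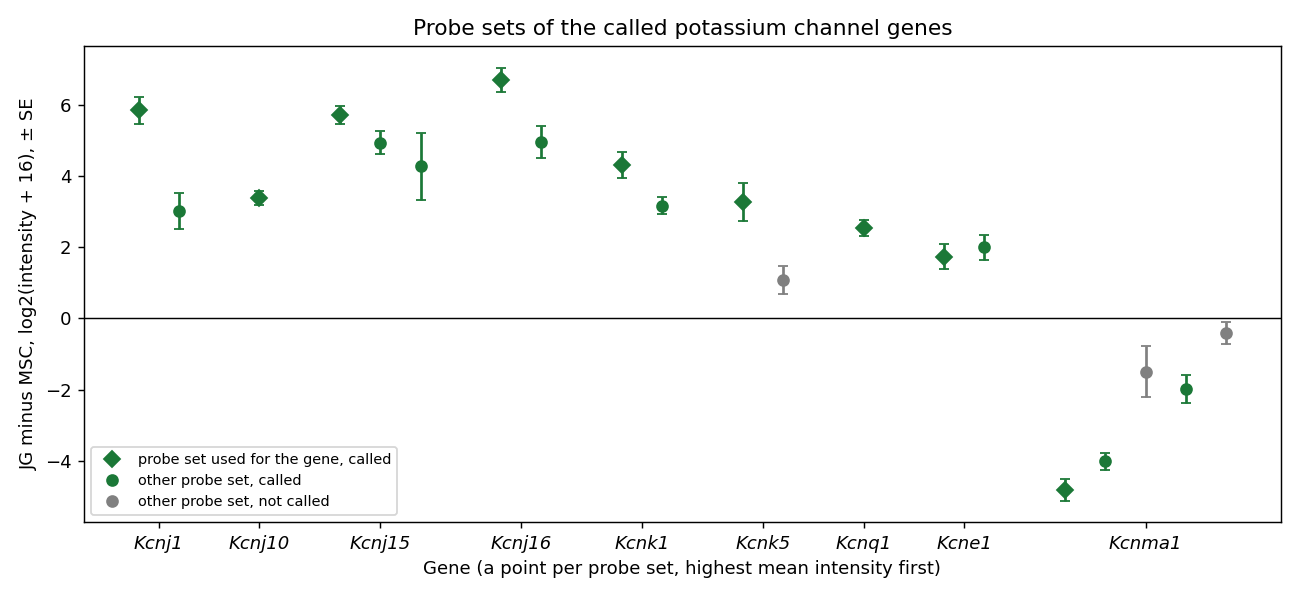
Each point is a probe set of a called gene, with its difference JG minus MSC on the log2(intensity + 16) scale and its standard error; diamonds mark the probe set that stands for the gene and grey marks probe sets not called in the fit across all probe sets. All probe sets of the 8 genes called higher lie above 0 and all 5 of Kcnma1 lie below 0, with 3 grey points in total.

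Where a called gene had a measured Kcn gene next to it in the genome, that neighbour was not called. By the order of protein-coding genes in RefSeq (GRCm38.p6), 9 pairs of measured Kcn genes were direct neighbours. In 5 of these pairs 1 gene was called and its neighbour was not, and in the other 4 neither was. The pairs, with the called gene first, were Kcnj16 and Kcnj2 (6.72 and 0.74), Kcnj1 and Kcnj5 (5.85 and 1.19), Kcnj15 and Kcnj6 (5.72 and -0.11), Kcnj10 and Kcnj9 (3.39 and 0.48), and Kcnk5 and Kcnk16 (3.27 and 0.57). Most genes were not called, 75 of the 84 members and 15390 of all 18193 genes, so an uncalled neighbour is the usual case. The difference between neighbours was not tested.

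Genes of renal potassium and sodium handling outside the Kcn symbols were called higher in JG for 10 of 20 measured and lower for 0, with a median difference of 1.64 over the 20. Of all genes 7.7% were called higher and 7.71% lower. Slc12a1, Slc12a3, Scnn1g and Hsd11b2 also stand in the tubular marker lists above, so their values are counted there too. With MSC sample 2 or 3 omitted 6 of the 20 were called higher. The count of 0 lower was not stable. After quantile normalization or median centring, with either intensity filter, and with a trended and robust prior 1 was called lower. With JG sample 3 omitted 1 was called lower too, and with array weights or the mean of probe sets 2 were. Oxsr1, a kinase that activates sodium-chloride cotransporters, was the gene with the largest difference in the other direction, with 129, 40.1 and 240.5 in JG and 694, 404 and 587 in MSC (-2.15 ± 0.57, adjusted p = 0.0534); it was chosen after its values were seen. Fxyd2, the gamma subunit of the sodium pump, had 5628, 3765 and 4873 in JG and 7.62, 11.6 and 13.2 in MSC (7.46 ± 0.25, adjusted p = 4.83e-05). Slc12a1, the sodium-potassium-chloride cotransporter of the thick ascending limb, was at 2022 ± 186 in JG and 14.6 ± 6.76 in MSC (6.08 ± 0.25, adjusted p = 7.49e-05). Slc12a3, the thiazide-sensitive cotransporter of the distal convoluted tubule, had 1623, 258 and 698 in JG and at most 1.80 in MSC (5.31 ± 0.62, adjusted p = 0.00333). Fxyd4, a sodium pump regulator of the collecting duct, differed by 4.17 ± 0.21 (adjusted p = 0.000134).

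Partners of potassium channels that carry other symbols, such as sulfonylurea receptors and cyclic nucleotide-gated relatives, gave 1 called gene of 13 measured, higher in JG, with a median difference of 0.81. That count is close to the share of all genes called higher, 7.7%. Tmem175, a potassium channel of endosomes and lysosomes, had 489, 419 and 279.7 in JG and 74.9, 107 and 114 in MSC, and the groups did not overlap (1.82 ± 0.30, adjusted p = 0.0115). Hcn2, a pacemaker channel, had 31.7, 19.0 and 8.22 in JG and 49.5, 57.8 and 72.1 in MSC (-1.13 ± 0.32, adjusted p = 0.0611). Its groups did not overlap either. No gene of this list was called higher with a replicate block, with the mean of probe sets, or with MSC sample 1 or 2 omitted, so the Tmem175 call was lost in those 4 fits. After quantile normalization, with the mean of probe sets, with array weights or with JG sample 1 omitted, 1 gene of the list was called lower. With array weights 3 were called higher, and with JG sample 1 omitted 2 were.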

How the data were processed

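Total RNA (100 ng per sample, per the labels) of 3 JG and 3 MSC samples was hybridised to Affymetrix mouse arrays. The deposited values are linear probe set intensities; the labels do not say how the authors summarised, background-corrected and scaled them. Of 45037 probe sets, 34945 name 1 gene in the platform annotation, 932 several and 9160 none; 34741 of the 34945 matched RefSeq, and no symbol changed. The probe set with the highest mean stood for a gene, and 16 was added before log2. limma 3.58.1 (R 4.3.3; lmFit, eBayes, Benjamini-Hochberg over 18193 genes, two-sided, threshold 0.05) tested JG minus MSC without covariates. Each adjusted p-value comes from limma. A single-gene exact permutation test of 3 against 3 cannot go below 0.10. The number of arrays limits the precision, and no batch is given by the labels. On simulated data for this comparison (18193 genes, 200 changed), 0% of log2 changes of 1, 37% of changes of 2 and 94.8% of changes of 4 were recovered. In the data 2803 genes were called, so the adjustment was less strict there and these shares do not carry over. Some genes with a difference near 1 were called, such as Ptprc of the leukocyte list (1.00, limma adjusted p = 0.0364). Members and gene lists were chosen with earlier results of these data known. Named were all called members, in each class the 3 members with the highest mean in JG and the 3 with the highest in MSC, uncalled members without overlap that differ by at least 1 on the log2 scale and whose higher group mean exceeds the median over all genes, and textbook renal and vascular channels; Kcnj5, Abcc9 and Hcn2 beside them were chosen after their values were seen. Alternatives covered normalization, filters, the added constant, the choice of probe set, the variance prior, array weights, a replicate block and leaving out each sample. Promoter sequences are from RefSeq (GRCm38.p6), which held windows for 64 members.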

Additional observations from a re-analysis of the deposited data

Results flagged for a closer look

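A second probe set of Kcnk3, which does not stand for the gene in the comparison, differed between the groups, and it is listed because it lies outside the main measurement. It had 28.6, 58.9 and 30.8 in JG and 7.90, 3.46 and 10.9 in MSC, a difference of 1.215 ± 0.29 (SE; limma adjusted p = 0.0461 over all probe sets), with all JG samples above all MSC samples. The probe set that stands for Kcnk3 gave 0.27, and the remaining one gave -0.08.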

How the results depend on the processing

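Of the 9 called genes, 7 were called in each of the 18 alternatives that tested them; Kcne1 and Kcnk5 were not, as given above. The filter at the median left 10 members and 4 of them higher in JG, because Kcne1, Kcnj10, Kcnk5 and Kcnq1 were not tested there. With array weights 17 members were higher and 2 lower, and 6429 of all genes were called, against 2803. Leaving out 1 sample at a time gave 6 to 14 members higher, 1 to 3 lower and 1149 to 5301 of all genes called; without JG sample 1 there were 14, 3 and 5301, and without MSC samples 1, 2 and 3 all-gene calls were 1235, 1170 and 1149. The cause was not tested. Same-numbered samples did not deviate together (correlations of -0.20, -0.01 and -0.01), so the numbers were not read as pairs; with a replicate block 1594 of all genes were called, 7 members were higher and 1 lower, and Kcne1 had an adjusted p of 0.0524. Of 26 uncalled named genes 18 were called in no alternative. Directions turned for uncalled genes only: Kcnh3 was -0.39 with array weights and ran from -0.27 (JG sample 1 left out) to 0.50 when single samples were omitted, with -0.14 for MSC sample 1. Kcnj11 ran from -0.46 (JG sample 2 omitted) to 0.82, with -0.05 for MSC sample 2. Kcnk10 ran from -1.44 (JG sample 1 omitted) to 0.42 (JG sample 2), with 0.07 for JG sample 3. Kcnmb1 was 0.22 with array weights. Kcnq5 was -0.075 after quantile normalization and -0.13 with 1 added, and ran from -0.26 (JG sample 3 omitted) to 0.46. Choosing probe sets by mean log2, an alternative chosen after seeing the data, changed 1 member (Kcnj16, then 4.97). Intensities near the background limit what can be said of the dim members.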

Other observations

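Kcnq1ot1 was read by 6 probe sets, none of them called. MSC sample 1 was the highest MSC sample on all 6, at 1.81 to 12.3 times MSC sample 2.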
